A study of Caenorhabditis elegans with 3 samples.

Results

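The pud genes of Caenorhabditis elegans are named for proteins found at raised levels in daf-2 mutants, which lack full function of the insulin receptor. They were taken as the spots that the array's probe-to-gene table pairs with a single gene whose symbol is pud- and a number. The gene table lists 6 such genes, and 2 of them, pud-2.1 and pud-4, had a named spot, 1 spot each, among 15168 genes named on the array. No spot was named for pud-1.1, pud-1.2, pud-2.2 or pud-3, and they were not analysed here. The family was chosen by its large log2 ratios on these same arrays, so the ratios of its members are given as a description and were not tested.

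The values come from 3 arrays with 2 channels each. Each array set RNA of hermaphrodites at the late L4 (last larval) and young adult stage, from prep 1, 2 or 3, against a mixed wild-type reference. The labels give no genotype for the staged hermaphrodites, no daf-2 mutant and no make-up of the mixture. They do not tell whether the preps were grown separately, so the p-values below cover no more than the scatter of these preps, part of which may be technical. Each prep was read on 1 array, and the array titles end in what reads as a different date for each. Differences between preps thus cannot be told apart from differences between arrays or dates.

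The DAF-2 receptor acts through the lipid kinase AGE-1 and the AKT kinases to keep the transcription factor DAF-16 out of the nucleus. When DAF-2 signalling is low, DAF-16 enters the nucleus, and many genes rise or fall. PUD-1 and PUD-2 are small, related proteins that are abundant in the intestine and epidermis of the worm and bind each other as a heterodimer, while the related PUD-3 and PUD-4 are monomers. PUD-1 and PUD-2 are each encoded by a pair of near-identical genes, so the spot named pud-2.1 may also take up RNA of pud-2.2, and its value is uncertain to that extent.

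Which channel is on top of the ratio is not given. The staged RNA was the second channel of every array, so a positive log2 ratio was taken as the likely sign of more RNA in the staged hermaphrodites than in the reference. With the opposite direction every sign below would turn. Over all spots, Pearson's r between arrays was 0.63 to 0.64. The arrays gave values for 19825 to 19927 of 20000 spots. Spot brightness was not part of the table, so weak and saturated spots were kept, and precision is limited by having 3 arrays. The stage showed in its known genes. Of 30 major sperm protein genes, 29 were called higher and 0 lower (limma, adjusted p under 0.05; also 0 lower at an unadjusted p under 0.05), where over all genes 11.3% were called higher and 9.37% lower. Of 4 adult cuticle collagens, col-62, col-7 and col-19 were called higher, at 4.05 ± 0.75, 3.80 ± 0.39 and 2.24 ± 0.69 (SD, n = 3). The remaining member, col-63, was at 0.38 ± 0.61 and did not pass.

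The spot of pud-2.1, which encodes the PUD-2 subunit, had log2 ratios of 3.50, 3.62 and 4.15 in preps 1, 2 and 3. As ratios these ran from 11.3-fold in prep 1 to 17.7-fold in prep 3 over the reference. All of its arrays were strongly positive and lay within 0.64 of each other on the log2 scale. The mean log2 ratio was 3.76 ± 0.34 (SD, n = 3), or 13.5-fold. It ranked 10 of the 15119 genes measured on every array. On the single arrays it ranked 29, 23 and 17 in preps 1, 2 and 3. Only 7 genes, pud-2.1 included, had a log2 ratio of at least 3.50, its lowest value, on all 3 arrays.

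The spot of pud-4, which encodes a monomeric relative of PUD-1 and PUD-2, had log2 ratios of 3.11, 2.19 and 1.33 in preps 1, 2 and 3. As ratios these were 8.61-fold, 4.56-fold and 2.51-fold over the reference. Every array was positive, but the size differed between the arrays, and prep 1 stood well apart from prep 3. The mean log2 ratio was 2.21 ± 0.89 (SD, n = 3), or 4.62-fold, and ranked 232 of 15119. On the single arrays it ranked 69, 308 and 1037. In prep 3, 6.85% of genes thus had a larger log2 ratio than pud-4, against 0.45% in prep 1.

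**Figure D1:**
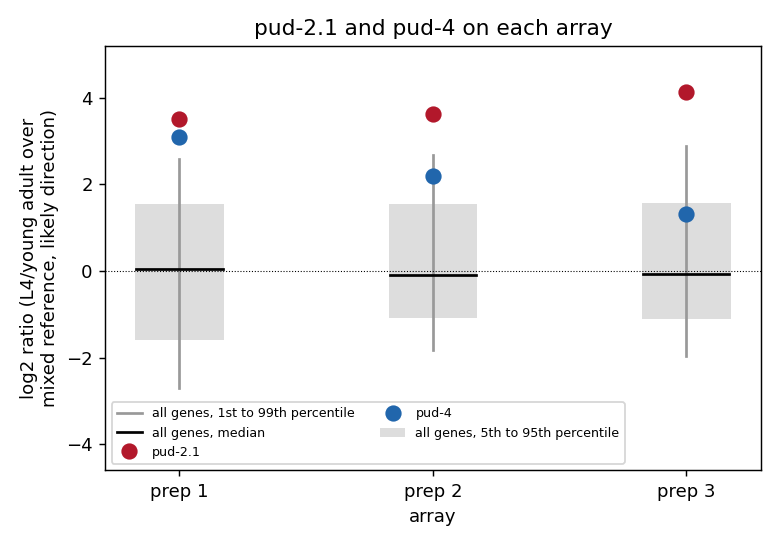
Log2 ratio (vertical axis) of pud-2.1 and pud-4 on each of the 3 arrays (horizontal axis), beside the spread of all 15119 genes as the median, the range from the 5th to the 95th percentile and the range from the 1st to the 99th. The points of pud-2.1, between 3.50 and 4.15, lie above the 99th percentile on every array, while those of pud-4 lie above it in prep 1, below it in prep 2 and inside the range from the 5th to the 95th percentile in prep 3.

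The values of pud-2.1 did not overlap those of pud-4. The lowest log2 ratio of pud-2.1, 3.50, stood above the highest of pud-4, 3.11. The difference of the log2 ratios, pud-2.1 minus pud-4, came to 0.40, 1.43 and 2.82 in preps 1, 2 and 3. Thus in prep 1 the genes were close to each other, and in prep 3 they were 7.06-fold apart. Prep 3 held the highest value of pud-2.1 and the lowest of pud-4.

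The genes also differed in how well the preps repeated. The SD of pud-2.1 over the arrays, 0.34, was below the median of 0.39 for all genes, and 58.5% of genes had a larger SD. The SD of pud-4, 0.89, was exceeded by 6.42% of genes. Among the 232 genes with a mean log2 ratio at or above that of pud-4, which had a median SD of 0.51, 35 (15.1%) had a larger SD than pud-4 and 173 (74.6%) a larger one than pud-2.1. The log2 ratio of pud-4 was larger by 1.78 in prep 1 than in prep 3. A difference at least as large in that direction was found for 93 of 15119 genes, pud-4 included, and for 3 of the 232. That of pud-2.1 was -0.64, the same sign as the median of -0.22 over the 232 genes, of which 143 were lower in prep 1 than in prep 3.

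The deposited probe numbers were also split into 32 equal runs, and each spot was set beside the others of its run. The run that holds pud-2.1 had median log2 ratios of -0.56, -0.21 and 0.06 in preps 1, 2 and 3. Less these medians, pud-2.1 stood at 4.07, 3.83 and 4.09, and it ranked 3 in its run on every array. The run of pud-4 had medians of -0.10, -0.18 and -0.35, which left pud-4 at 3.21, 2.37 and 1.67. The part of the place on the array in these values was not tested.

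In the gene table (assembly WBcel235) the 6 pud genes follow one another on chromosome V with no other protein-coding gene between them. Their order is pud-1.2, pud-2.2, pud-3, pud-4, pud-2.1 and pud-1.1, so the measured genes are next to each other. Of the 10 protein-coding genes on either side of the cluster, 11 of 20 had values. None reached the mean of pud-4, which only 1.53% of all genes did. The median of the measured neighbours as deposited was -0.55, against -0.04 over all genes. The highest were the F-box gene fbxa-137 at 0.59 ± 1.01 and the nuclear hormone receptor genes nhr-226 at 0.37 ± 0.78 and nhr-227 at 0.23 ± 0.70. The lowest were nhr-115 at -0.63 ± 0.70, irld-29 at -0.63 ± 0.04 and nhr-228 at -0.60 ± 0.46. With each array centred in the runs of probe numbers, these lowest genes stood at -0.39, -0.39 and -0.36. The highest, fbxa-137, nhr-226 and nhr-227, then stood at 0.63, 0.42 and 0.28. The median of the neighbours was not taken with this centring, and the part of the runs in it was not tested. The irld genes encode proteins related to the extracellular part of the insulin receptor. They lie on both sides of the cluster, but irld-15, on the side of pud-1.2, had no value, and the measured ones lie on the side of pud-1.1. All 4 measured there had means below 0, from -0.63 ± 0.04 for irld-29 to -0.12 ± 0.55 for irld-28, and irld-53 on that side had no value. None of them passed, and the median over all genes, -0.04, was below 0 as well. A mean below 0 was thus common and does not set the irld genes apart.

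With limma, 0 of the 11 neighbours passed an adjusted p of 0.05, while over all genes 20.7% did. At an unadjusted p under 0.05, 4 passed as lower and 0 as higher. How many of all genes pass at that looser threshold was not counted, so the 20.7% does not apply to it. Without prep 3, nhr-115 passed at -0.94 (limma adjusted p = 0.0495). The log2 ratios of fbxa-137, nhr-226 and nhr-227 in prep 2 were 1.75, 1.27 and 1.01. In preps 1 and 3 these genes lay between -0.32 and 0.02, so their means rest on prep 2, in which pud-2.1 and pud-4 held their middle values.

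**Figure D2:**
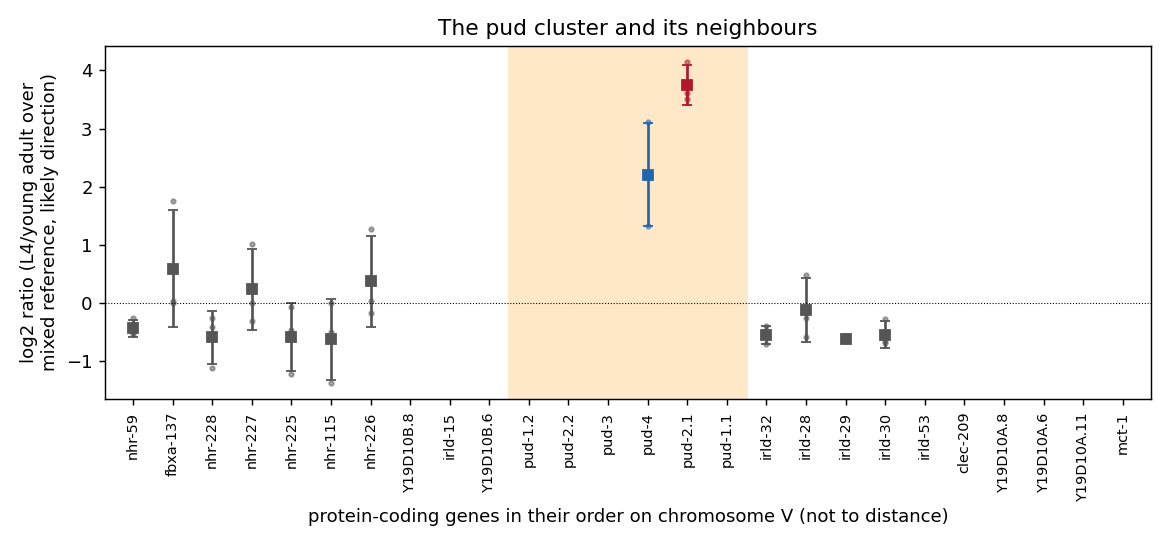
Log2 ratio (vertical axis) of the pud genes (shaded) and of the 10 protein-coding genes on either side, in their order on chromosome V (horizontal axis, not to distance). Squares are means, bars are SD over 3 arrays, dots are single arrays, and genes without a point had no value. The pud genes stand at 3.76 and 2.21, and the 11 measured neighbours lie between -0.63 and 0.59.

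The genes most like each pud gene were found by the root mean square difference of the log2 ratios over the 3 arrays. With 3 arrays this says only that the values are close. The gene nearest to pud-2.1 was the adult cuticle collagen gene col-7, at a difference of 0.083, with log2 ratios of 3.45, 3.73 and 4.22 in preps 1, 2 and 3. Next were the sperm chromatin gene spch-3 and the major sperm protein gene msp-55, at 0.22 each. Their log2 ratios lay between 3.42 and 3.91 on all arrays.

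The gene nearest to pud-4 was the collagen gene col-184, at a difference of 0.10, with log2 ratios of 3.03 in prep 1 and 1.46 in prep 3. H11L12.1 followed at 0.19, with 3.21, 2.13 and 1.01. The P granule gene pgl-1, whose product marks germ cells, came next at 0.28, with 2.83, 1.79 and 1.29. Their prep order follows from this choice of genes. The difference between the pud genes themselves was 1.84. Of the 15119 genes, 298 were closer to pud-2.1 than pud-4 was, and 2791 were closer to pud-4 than pud-2.1 was.

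**Figure D3:**
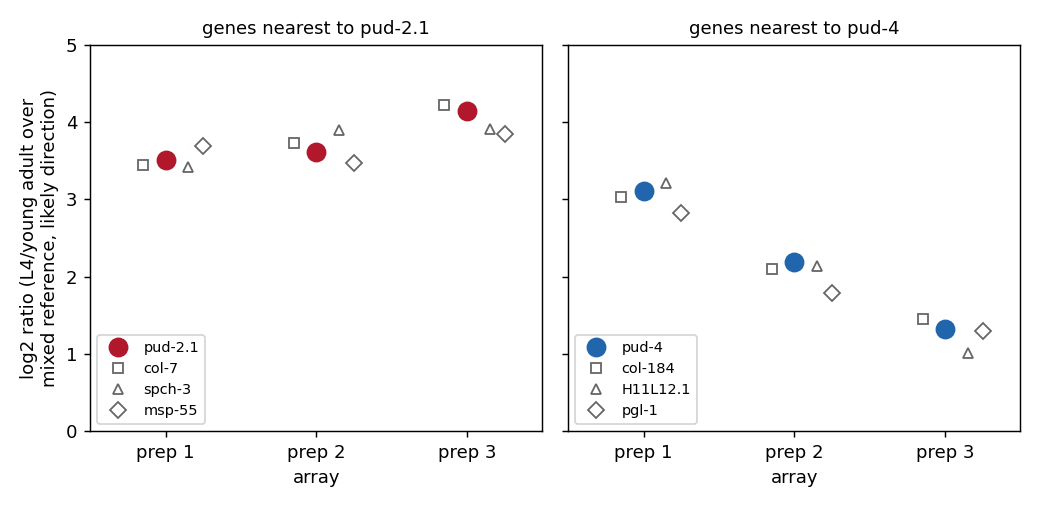
Log2 ratio (vertical axis) on each array (horizontal axis) of pud-2.1 (left) and pud-4 (right), as filled circles, and of the 3 genes nearest to each, as open symbols moved sideways for legibility. The genes near pud-2.1 lie between 3.42 and 4.22 on every array, and those near pud-4 stand between 2.83 and 3.21 in prep 1 and between 1.01 and 1.46 in prep 3.

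The pud genes are named for protein levels, while the ratios here are of RNA. Genes known to be raised in daf-2 mutants, with the pud genes left out, were more often called lower than higher. Of 33 such genes 27 were measured, of which 1 was called higher, 9 were called lower and 17 did not pass (limma, adjusted p under 0.05). Over all genes 11.3% were called higher and 9.37% lower. Their median was -0.45, against -0.04 over all genes. None of the 27 reached the mean of pud-4, which only 1.53% of all genes did. The lowest was the small heat shock gene hsp-12.6, with -4.97, -4.57 and -5.06 in preps 1, 2 and 3, a mean of -4.87 ± 0.26 (limma adjusted p = 3.96e-06). All of its arrays lay far below 0.

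The DAF-16 target dod-3 had -4.97, -3.12 and -3.11 in preps 1, 2 and 3, a mean of -3.73 ± 1.07 (limma adjusted p = 4.58e-05). The metallothionein gene mtl-1 was at -2.95 ± 0.42 (limma adjusted p = 2.92e-05). The highest of the list was the lysozyme gene lys-8 at 1.23 ± 0.43 (limma adjusted p = 0.00668), with 0.88, 1.09 and 1.71 in preps 1, 2 and 3. It was the only one of the 27 that was called higher, and even its highest array lay below the mean of pud-4. The next were gst-4, a glutathione S-transferase gene, at 0.62 ± 0.25 and the small heat shock gene hsp-16.1 at 0.23 ± 0.50, and neither passed.

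Genes known to be lowered in daf-2 mutants were more often called higher than lower. Of 13 measured, 4 were called higher, 1 lower and 8 did not pass, where 11.3% of all genes were called higher and 9.37% lower. The median of the list was 0.54, against -0.04 over all genes. By array it was 0.65, 1.01 and -0.27 in preps 1, 2 and 3, so its sign turned in prep 3. Those called higher were dod-19 at 3.46 ± 0.34, dod-17 at 2.51 ± 0.77, the intestinal peptide transporter gene pept-1 at 1.63 ± 0.34 and dod-20 at 1.09 ± 0.47. Of these dod-19 and dod-17 stood above the mean of pud-4, as 1.53% of all genes stood at or above it, and none above that of pud-2.1. The call of dod-20 was lost without prep 3 (0.83). The gene called lower was dod-22 at -1.61 ± 0.62. Next to it were dod-23 at -0.81 ± 0.58, which passed as lower without prep 1 (-1.12), and the guanylate cyclase gene gcy-6 at -0.55 ± 0.38.

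Genes of the insulin pathway itself were called about as often as genes in general, at 17.6% of the list against 20.7% over all genes. Of 17 measured, 0 were called higher, 3 were called lower and 14 did not pass. At an unadjusted p under 0.05 limma gave 1 higher and 3 lower, and the share of all genes at that threshold was not counted. The median was -0.01, against -0.04 over all genes. The genes called lower were the kinase gene akt-2 at -1.42 ± 0.28, the receptor substrate gene ist-1 at -0.93 ± 0.46 and the insulin-like peptide gene ins-4 at -0.90 ± 0.21. The calls of ist-1 and ins-4 were lost without prep 1 (-0.69 and -0.85), and that of ins-4 also without prep 3 (-0.83). Centring in 32 runs of probe numbers ended both calls as well, at -0.64 for ins-4 (limma adjusted p = 0.0685) and -0.67 for ist-1 (limma adjusted p = 0.116). The highest were the 14-3-3 genes par-5 at 0.74 ± 0.42 and ftt-2 at 0.53 ± 0.13, whose products hold DAF-16 in the cytoplasm, and age-1 at 0.50 ± 0.61. None of these passed as deposited. The 14-3-3 gene par-5 passed without prep 3 (0.98; limma adjusted p = 0.0378), and at the same size with each array centred in 32 runs of probe numbers (limma adjusted p = 0.0494).

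The receptor gene daf-2, for which the pud genes are named, was at -0.28 ± 0.62, and daf-16 was at -0.01 ± 0.07; both were named outside the rule and neither passed. On the single arrays daf-2 had log2 ratios of -0.98, 0.20 and -0.07 in preps 1, 2 and 3, so its negative mean rests on prep 1, and without prep 1 it was 0.07. Relative to each array's median, daf-16 turned to 0.03.

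The PUD-1 and PUD-2 proteins are known from the intestine and the epidermis, so markers of both tissues were set beside the pud genes. No tissue is given here for PUD-4, and the markers do not place pud-4 in either tissue. Since whole animals were measured, more cells of a type and more RNA per cell cannot be told apart. Of 10 intestinal markers 7 were called higher, 0 were called lower (also 0 lower at an unadjusted p under 0.05 with limma) and 3 did not pass, where over all genes 11.3% were called higher and 9.37% lower. The highest were the intestinal actin gene act-5 at 2.17 ± 0.24, the proton pump gene vha-6 at 2.14 ± 0.47 and the protease gene asp-1 at 1.71 ± 1.08. The phosphatase gene pho-1 at 1.62 ± 0.24, the exchanger gene nhx-2 at 1.54 ± 0.55, the esterase gene ges-1 at 1.18 ± 0.43 and the filament gene ifb-2 at 0.91 ± 0.13 also passed. The 3 that did not were the metallothionein gene mtl-2 at 0.37 ± 0.16 and the GATA factor genes elt-2 at -0.09 ± 0.33 and elt-7 at -0.25 ± 0.04.

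None of the 10 intestinal markers reached the mean of pud-4, but only 1.53% of all genes did, so this does not set the markers apart. Over these 10 the median log2 ratio stood at 1.11 (prep 1), 1.30 (prep 2) and 0.81 (prep 3). Prep 3 was the lowest for this list and for pud-4, and the highest for pud-2.1. Without prep 2, ges-1 was at 0.94 and no longer passed, and asp-1 was at 1.11 and still passed. The call of ifb-2 was lost without prep 1 (0.84) or prep 2 (0.93).

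Of 9 epidermal markers measured, 1 was called higher, 1 lower and 7 did not pass, a share of 22.2% called, near the 20.7% over all genes. The adult cuticle collagens col-62 (4.05), col-7 (3.80) and col-63 (0.38) were kept in a separate list. The counts given here thus depend on how the lists were drawn. At an unadjusted p under 0.05 limma gave 1 higher and 6 lower among the 9 markers. The share of all genes at that looser threshold was not counted, so these counts have no background beside them. The gene called higher was the adult collagen gene col-19, and its mean of 2.24 lay next to that of pud-4. Its log2 ratios were 3.04, 1.82 and 1.85 in preps 1, 2 and 3. The larval collagen gene dpy-7 was called lower at -1.79 ± 0.72. The collagen gene rol-6 at -1.45 ± 1.85 and the apical membrane gene che-14 at -0.93 ± 1.30 did not pass. Without prep 3 both passed, at -2.12 and -1.54, and rol-6 also passed without prep 2 (-1.83). Of the epidermal factor genes, nhr-23 at 0.38 ± 0.42 and lin-26 at 0.05 ± 0.49 had means above 0. Those of elt-3 at -0.62 ± 0.34 and nhr-25 at -0.85 ± 0.90 lay below 0, as did the marker wrt-2 at -0.79 ± 0.98. None of these passed. Over the 9 markers the median log2 ratio stood at -1.70 (prep 1), -0.25 (prep 2) and -0.19 (prep 3). It was lowest in prep 1, in which pud-4 and the marker col-19 were highest. Low values also reached further down in prep 1 over all genes, with a 5th percentile of -1.60, against -1.08 in prep 2 and -1.12 in prep 3. The part of this wider spread in the median of the markers was not tested. The part of these tissues in the values of the pud genes was not tested.

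**Figure D4:**
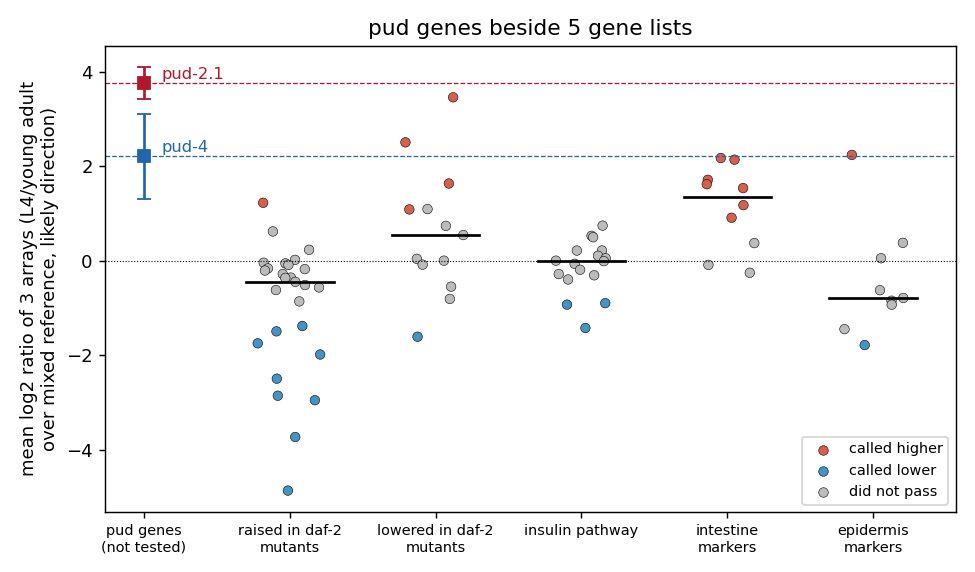
Mean log2 ratio over 3 arrays (vertical axis) of pud-2.1 and pud-4 (squares with SD, dashed lines at their means) and of the genes of 5 lists (horizontal axis), coloured by limma's call at an adjusted p of 0.05, with a bar at each list's median; points are moved sideways at random. The medians stand at -0.45 for genes raised in daf-2 mutants, 0.54 for genes lowered in them, -0.01 for the insulin pathway, 1.36 for the intestine and -0.79 for the epidermis.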

How the data were processed

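The deposited table holds 1 log2 ratio per spot and array. Base 2 was tested: among ratios under 0.6, 2 raised to the value was a whole number of thousandths (to 1% of a thousandth) for 100% of values on all 3 arrays. Dyes, background correction, spot filter and normalization: not given in the sources used here. Array medians were 0.04, -0.08 and -0.06, and whether arrays were centred by the authors stays unknown.

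Of 20000 spots, 15655 had 1 listed gene, with symbols updated through a RefSeq gene table (WBcel235; 15569 matched), 198 had several and 4147 had none. Where a gene had several spots, they were averaged per array. The 15119 genes with 3 values were tested against 0 with limma 3.58.1 (R 4.3.3; lmFit, eBayes, two-sided, Benjamini-Hochberg), which calls 3126 genes, 1709 higher and 1417 lower. The test was tried on simulated data with independent normal scatter, so that trial says nothing on offsets shared by spots of a run. The test leaves out the spread of the reference itself.

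The members and gene lists were chosen with earlier results of these data known. Named were the 3 genes nearest to each pud gene, the 3 highest and lowest of each list and of the neighbours, and the called members of short lists. The related genes pudl-1 and pudl-2 were not analysed here.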

Additional observations from a re-analysis of the deposited data

How the results depend on the processing

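The mean log2 ratio of pud-2.1 was 3.56 to 3.88 with 1 prep left out, and that of pud-4 was 1.76 to 2.65. With each array centred in 32 runs of consecutive spots pud-4 stood at 2.42. These and the other alternatives moved either by less than its SD. Centring on the array median, scaling, missing values, repeated spots and a robust variance left all counts within 1.5 times of those given. Over all genes, 1605 were called at an adjusted p under 0.01, and 1759 to 2904 with 1 prep left out, with the fewest without prep 1. Run centring kept the counts within 1.5 times too, but in the insulin pathway list it gave 1 higher (par-5) and 1 lower (akt-2) in place of 0 and 3. In that list 1 was called at 0.01, and 1 to 3 with 1 prep left out. Leaving out 1 prep gave 9 to 11 calls among genes raised in daf-2 mutants, 5 to 7 among those lowered, and 0 to 1 among the neighbours. Of the 57 other named genes, 17 changed a call or sign without 1 prep. The sign turned for elt-2 (-0.27 to 0.036), lin-26 (-0.21 to 0.28), msp-38 (-0.44 to 0.046), nhr-226 (-0.077 to 0.65), nhr-227 (-0.16 to 0.51), daf-2 (-0.53 to 0.067) and daf-16 (-0.035 to 0.028). Run centring turned elt-2 to 0.0085, lin-26 to -0.15 and msp-38 to 0.045, and median centring turned daf-16 to 0.027. None of these 7 passed, and the cause was not tested. No paired analysis was possible because the 3 preps form a single group. Without intensities, dim spots could not be set apart.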
